A study of Homo sapiens with 8 samples.

Results

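Resistance to cisplatin and resistance to paclitaxel were examined here as the 2 factors of a 2 by 2 design, and the question was where open chromatin in a line resistant to both drugs departed from the sum of what the lines resistant to each drug showed. The cells were A2780, a human line established from an ovarian cancer, and were profiled by ATAC-seq, in which the Tn5 transposase inserts sequencing adapters into accessible DNA. The 4 groups, with 2 libraries each and 8 in all, were control A2780, cisplatin-resistant cells, paclitaxel-resistant cells and dual-resistant cells. The genotype label was WT in all 4 groups. The treatment label named no drug for the control, Cisplatin or Paclitaxel for the lines resistant to a single drug, and Cisplatin and Paclitaxel for the dual line. The sources used here do not give the doses, whether drug was present at collection, or whether the dual line came from either single line. The labels do not say if the 2 libraries of a line were separate cultures, so the p-values measure only the spread between these libraries, which may be technical. Of 159451 deposited peaks, each 1001 bp wide, 158698 reached a CPM (reads scaled to a fixed total of 1000000 reads in peaks) of at least 1 in at least 2 of the 8 libraries and were tested.

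Cisplatin is a platinum compound that forms crosslinks in DNA, and paclitaxel binds and stabilises microtubules. If 2 resistance states acted independently on a regulatory element, their effects would multiply in counts and add on a log scale. A 2 by 2 interaction measures what is left after that addition: it is 0 when the dual line sits where the separate changes would put it, positive when the dual line is more open, and negative when it is less open. The sum at a peak was therefore the cisplatin-resistant level plus the paclitaxel-resistant level minus the control level, each as the mean log2(CPM + 0.5) of 2 libraries, and the departure was the dual level minus that sum. A positive departure alone does not say that the dual line gained anything, since a dual line that stayed at the control level where the single lines had lost access also gives one. Levels are therefore given beside the departures that the results turn on. The same control libraries enter the changes of both single lines, so no count of shared change between the single lines is read as a result. Reads in a peak also scale with the number of DNA copies, and no copy-number data were used here, so accessibility and copy number cannot be told apart.

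The libraries held 7693492 to 9304798 reads in peaks, so that 1 read was worth 0.107 to 0.130 CPM and 3 reads, taken as the floor of detection, 0.322 to 0.390 CPM. The libraries of a group correlated at 0.926 to 0.933 over peaks in log2 CPM and differed by more than counting noise, so none was a repeat deposit. The share of reads in the strongest 1% of peaks was lowest in the dual libraries, 12.8 and 13.1%, and highest in the paclitaxel-resistant libraries, 16.2 and 16.4%. Scaling between libraries mattered for this design. Median-ratio factors were 1.09 and 1.10 in the dual and 0.916 to 1.04 in the other libraries, and they moved the median departure over all tested peaks from 0.22 on the deposited CPM scale to -0.09, and over peaks at genes from 0.04 to -0.31. Departures near those shifts are read only relative to them.

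Of the cell type markers, 8 of 9 ovarian carcinoma and epithelial genes had a peak at the gene, MUC16 having none, and their summed level was 32.2 to 48.2 CPM per library. Housekeeping genes, 12 of 12 with a peak, summed to 400 to 569 CPM. Fibroblast markers, 7 of 8, summed to 36.0 to 36.7 CPM in the control, 71.2 to 75.2 CPM in the single lines and 50.1 to 53.4 CPM in the dual line. Haematopoietic markers, 5 of 7, summed to 52.3 to 80.1 CPM, with no peak at PTPRC or LCP1, and endothelial markers, 2 of 6, to 3.15 to 14.9 CPM. The part of other cell types in the results was not tested.

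A gene was read at its gene peak, the strongest tested peak within 1 kb of its annotated start or, where no start was listed, of either end of its span. There were 14211 such peaks for 15726 protein-coding genes, 12573 of them anchored at a start. Start-region sequences, 250 bases before to 50 bases after a listed start from RefSeq on GRCh38.p14, are shown for 5 genes that carry the main patterns of the dual line. PAX2 stayed near the control level, HOXD10 was open above every other line, and ABCB1 was raised well above the other lines in the paclitaxel-resistant line alone. RUNX2 was raised in both single lines and in the dual line, and FOXL2 was lowered in the dual line alone. Each window lay wholly inside its gene peak. They are chr10:100745332-100745631 on the plus strand for PAX2, chr2:176116528-176116827 on the plus strand for HOXD10, chr7:87600835-87601134 on the minus strand for ABCB1, chr6:45328080-45328379 on the plus strand for RUNX2 and chr3:138947088-138947387 on the minus strand for FOXL2. Capitals mark GGGCGG (the GC box), CCAAT (the CCAAT box) and TGANTCA (the AP-1 element) on either strand, and in ABCB1 a CCAAT and a TGANTCA match overlap.
PAX2: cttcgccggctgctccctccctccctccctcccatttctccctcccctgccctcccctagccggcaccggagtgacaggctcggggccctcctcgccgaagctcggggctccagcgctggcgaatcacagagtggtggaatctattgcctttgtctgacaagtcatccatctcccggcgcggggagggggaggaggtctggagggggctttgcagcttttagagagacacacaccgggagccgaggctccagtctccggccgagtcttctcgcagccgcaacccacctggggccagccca
HOXD10: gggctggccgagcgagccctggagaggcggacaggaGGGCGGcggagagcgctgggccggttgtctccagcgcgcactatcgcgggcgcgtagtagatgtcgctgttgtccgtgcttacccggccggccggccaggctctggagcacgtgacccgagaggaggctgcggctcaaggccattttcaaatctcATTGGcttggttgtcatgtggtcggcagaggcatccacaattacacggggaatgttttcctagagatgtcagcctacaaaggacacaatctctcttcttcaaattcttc
ABCB1: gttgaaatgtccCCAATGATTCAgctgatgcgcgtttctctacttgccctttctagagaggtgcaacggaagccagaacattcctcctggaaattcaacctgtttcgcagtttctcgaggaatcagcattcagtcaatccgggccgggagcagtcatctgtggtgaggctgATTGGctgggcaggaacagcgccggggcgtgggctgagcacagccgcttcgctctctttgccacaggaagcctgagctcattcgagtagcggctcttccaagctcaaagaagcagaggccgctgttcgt
RUNX2: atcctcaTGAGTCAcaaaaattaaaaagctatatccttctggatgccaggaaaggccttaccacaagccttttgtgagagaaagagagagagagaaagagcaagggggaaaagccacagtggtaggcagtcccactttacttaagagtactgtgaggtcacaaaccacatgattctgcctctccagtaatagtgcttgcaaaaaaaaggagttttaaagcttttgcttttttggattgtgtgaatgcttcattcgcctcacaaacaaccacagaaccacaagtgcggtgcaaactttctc
FOXL2: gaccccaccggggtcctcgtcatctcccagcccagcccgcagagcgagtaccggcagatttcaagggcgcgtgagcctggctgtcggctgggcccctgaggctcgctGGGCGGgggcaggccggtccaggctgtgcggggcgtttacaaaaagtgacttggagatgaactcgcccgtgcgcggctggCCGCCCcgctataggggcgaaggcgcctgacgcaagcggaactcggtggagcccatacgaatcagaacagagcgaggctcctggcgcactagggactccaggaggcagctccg
The PAX2 window held none of the 3 motifs, HOXD10 a GGGCGG and a CCAAT, and FOXL2 a pair of GGGCGG matches. RUNX2, whose window held 2 CpG dinucleotides, matched only TGANTCA. Of all 35116 start regions in the table, 45% held GGGCGG, 34.6% CCAAT and 7.71% TGANTCA. A match describes the letters in the window and does not show that a factor binds there.

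At adjusted p under 0.05 (limma with a variance trend, Benjamini-Hochberg over all tested peaks), the dual line was called higher than the sum at 30672 peaks, 19.3% of those tested, and lower at 23753, 15%. Among gene peaks it was called higher at 2349 (16.5%) and lower at 2428 (17.1%). At an unadjusted p under 0.05 there were 69604 peaks in either direction. Peaks called higher had median log2 levels of 2.25 in the control, 1.37 and 1.5 in the cisplatin- and paclitaxel-resistant lines and 2.52 in the dual line, against a sum of 0.68. Peaks called lower had medians of 0.60 in the control, 2.73 and 0.88 in the single lines and 0.57 in the dual line, against a sum of 3. In both directions the median dual level was near that of the control, while both single lines were below it at peaks called higher and the cisplatin-resistant line was above it at peaks called lower. The control was the line nearest to the dual level at 69.7% of peaks called higher and 48.3% of peaks called lower, and at 44.0% of all tested peaks. The calls were made from these same levels, and selecting on the departure favours such an order. The levels and shares at called peaks are therefore a description only.

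The balance of the calls rests on the scaling. Of all calls, 56.4% were higher on the CPM scale, 51.2% after quantile normalization, 44.3% after cyclic loess, 36.3% with median-ratio factors and 43.7% when the median of each 5 Mb window or of each chromosome was subtracted. Of gene peak calls, 49.2% were higher on the CPM scale and 17.1% with median-ratio factors. Of the calls, 38757 were shared in direction with a count test on the recovered reads (edgeR) and 30359 with DESeq2, with 0 of the opposite direction in either. Cyclic loess shared 36936 with 4 opposite, and window subtraction 34095 with 252 opposite. No excess of either direction is therefore stated.

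**Figure D1:**
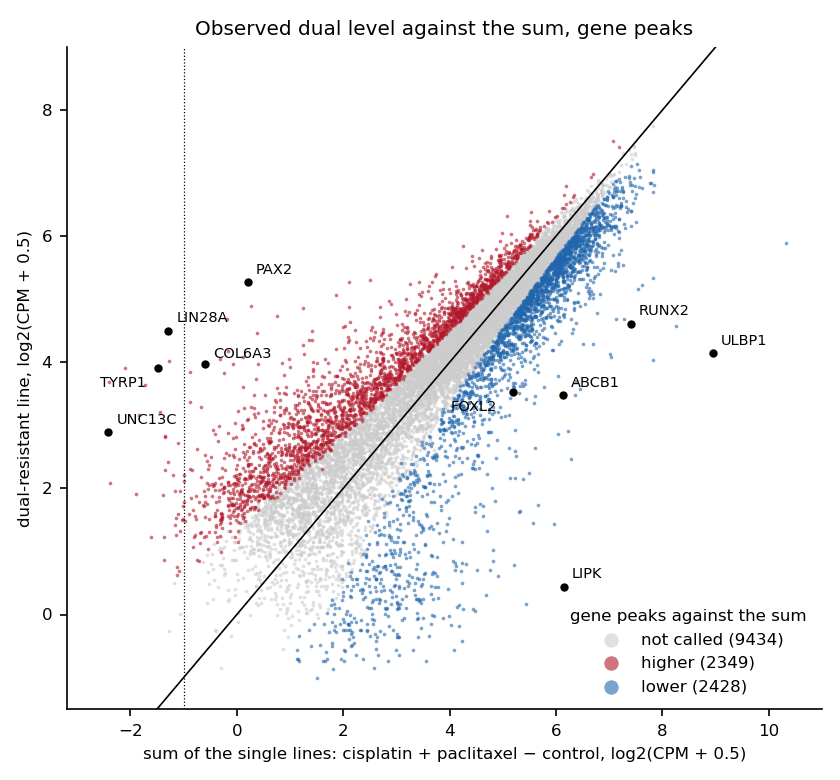
Sum of the single-line changes (x axis, log2(CPM + 0.5)) against the level in the dual line (y axis, same scale) at gene peaks, with 2349 peaks called higher and 2428 called lower in colour and the rest in grey. The diagonal marks equality and the dotted vertical line 0 CPM; peaks called higher lie above the diagonal at low sums, and those called lower lie below it.

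Precision limits what can be said of peaks that were not called. The median standard error of the departure was 0.54 over all tested peaks and 0.23 over gene peaks. The 95% interval lay within -1 to 1, that is within a 2-fold departure, at 18773 tested peaks (11.8%) and at 8163 gene peaks (57.4%). Of the 104273 peaks not called, 87384 had intervals reaching beyond a 2-fold departure, so additivity was not shown there. GSTP1, the glutathione transferase often studied in platinum resistance, was among the gene peaks with narrow intervals. Its levels were 21.4 and 21.6 CPM in the control, 20.3 and 17.9 CPM in the cisplatin-resistant, 22.5 and 21.8 CPM in the paclitaxel-resistant and 19.4 and 22.1 CPM in the dual libraries, and the departure was 0.08 (95% interval -0.34 to 0.50). Narrow intervals on the CPM scale did not make a result stable. The copper exporter gene ATP7B, at -0.24 (-0.54 to 0.06), was called lower at -0.60 with median-ratio factors (adjusted p = 0.0011), and also in edgeR, in DESeq2 and after chromosome subtraction. The copper importer gene SLC31A1, at -0.12 (-0.40 to 0.16), was called lower at -0.48 with median-ratio factors (adjusted p = 0.0057) and in edgeR and DESeq2. ALDH1A1, an aldehyde dehydrogenase gene, was weak throughout and its interval of -2.08 to 0.68 leaves its departure undetermined.

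Among the strongest departures above the sum were genes whose peak was low in both single lines and at or towards the control level in the dual line. PAX2, a transcription factor gene of the Müllerian and renal lineage, had its peak at chr10:100744993-100745993, over its start. It measured 41.6 and 42.3 CPM in the control, 5.29 and 4.56 CPM in the cisplatin-resistant, 10.1 and 7.19 CPM in the paclitaxel-resistant and 36.5 and 40.1 CPM in the dual libraries. The single lines were low and did not overlap the control, while the dual libraries lay just below it, where the sum predicted 0.65 CPM. The departure was 5.07 (SE 0.24, adjusted p = 7.57e-36). Around PAX2 the departure had the same sign beyond the start: 70 of 83 distal peaks within 100 kb nearest to it were called higher and 0 lower, with a median departure of 3.61. At 33 of the 83 both dual libraries lay above the other 6, unlike at the start. UNC13C, which encodes a synaptic vesicle priming protein, was at 14.6 and 20.1 CPM in the control and 6.31 and 7.63 CPM in the dual libraries. Its single-line libraries were between 0.563 and 1.94 CPM, and the sum lay below 0 CPM. The fitted departure of 5.32 therefore depends on the pseudocount, as do all departures with a sum below 0, which occurred at 2137 tested peaks and 38 gene peaks. LIN28A, a gene for an RNA-binding protein of stem cells read at the end of its span, had the same pattern, with 25 and 21.9 CPM in the control, 1.75 to 3.52 CPM in the single lines and 21.9 and 22.4 CPM in the dual line. FAM163A was lowered in the cisplatin-resistant libraries alone, 0.675 and 0.702 CPM, and the dual libraries at 15 and 12.7 CPM lay within the control range of 9.36 to 16.1 CPM.

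Elsewhere the dual line was more open than any other line, some of which were near the floor and others open at a lower level. Both dual libraries lay above the other 6 at 24768 tested peaks (15.6%) and at 853 gene peaks (6%), counted with no test. Many of the deposited peaks carry the name of the dual line in the consensus set, 62827 of those tested, so the share over all peaks also reflects how that set was assembled. Of gene peaks called higher, 453 had the dual libraries above the other 6. ZNF69, a zinc finger gene, was at 20.4 and 31.2 CPM in the dual libraries and at 1.46 CPM or below in the other 6, 4 of which were under 1 CPM. PDE1A, which encodes a cyclic nucleotide phosphodiesterase, had 31.7 and 27.1 CPM in the dual libraries, 9.75 and 7.21 CPM in the control and 2.48 to 3.04 CPM in the single lines, and the departure was 4.63 (SE 0.34, adjusted p = 1.31e-21). At PDE1A both single lines were low and the dual line exceeded the control, so the dual level lay on the other side of the control from the sum of 0.707 CPM.

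COL6A3, a collagen VI chain gene, was at 16.4 and 14.1 CPM in the dual libraries and between 0 and 1.93 CPM in the other 6. The neighbourhood followed, with 58 of 63 distal peaks called higher and 59 with the dual libraries above the other 6. TSHZ2, a homeobox zinc finger gene, had 14.5 and 13.4 CPM at its start in the dual libraries, 7.02 and 3.6 CPM in the control and 0.675 to 1.87 CPM in the single lines. CDH7, a cadherin gene, reached 22.8 and 20.5 CPM in the dual libraries and at most 1.3 CPM elsewhere. TIMP3, an inhibitor of matrix metalloproteinases, measured 10.5 and 9.14 CPM in the dual libraries, 3.25 and 3.48 CPM in the control and 0.788 to 1.21 CPM in the single lines. Further genes of this kind were the melanosomal enzyme gene TYRP1 (14.3 and 14.6 CPM in the dual libraries), the cholinesterase gene BCHE (16.6 and 15.7 CPM), the olfactory receptor gene OR6K3 (17.7 and 17.6 CPM), the zinc finger gene ZNF608 (26.2 and 25.8 CPM) and the RNA-binding protein gene CELF2 (6.55 and 7.63 CPM). For these 11 genes the dual libraries stayed above the other 6 under all 6 scalings tried. Several of the lines compared at these genes were at or near the 3-read floor, so the size of the departure moves with the pseudocount and no fold is given.

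**Figure D2:**
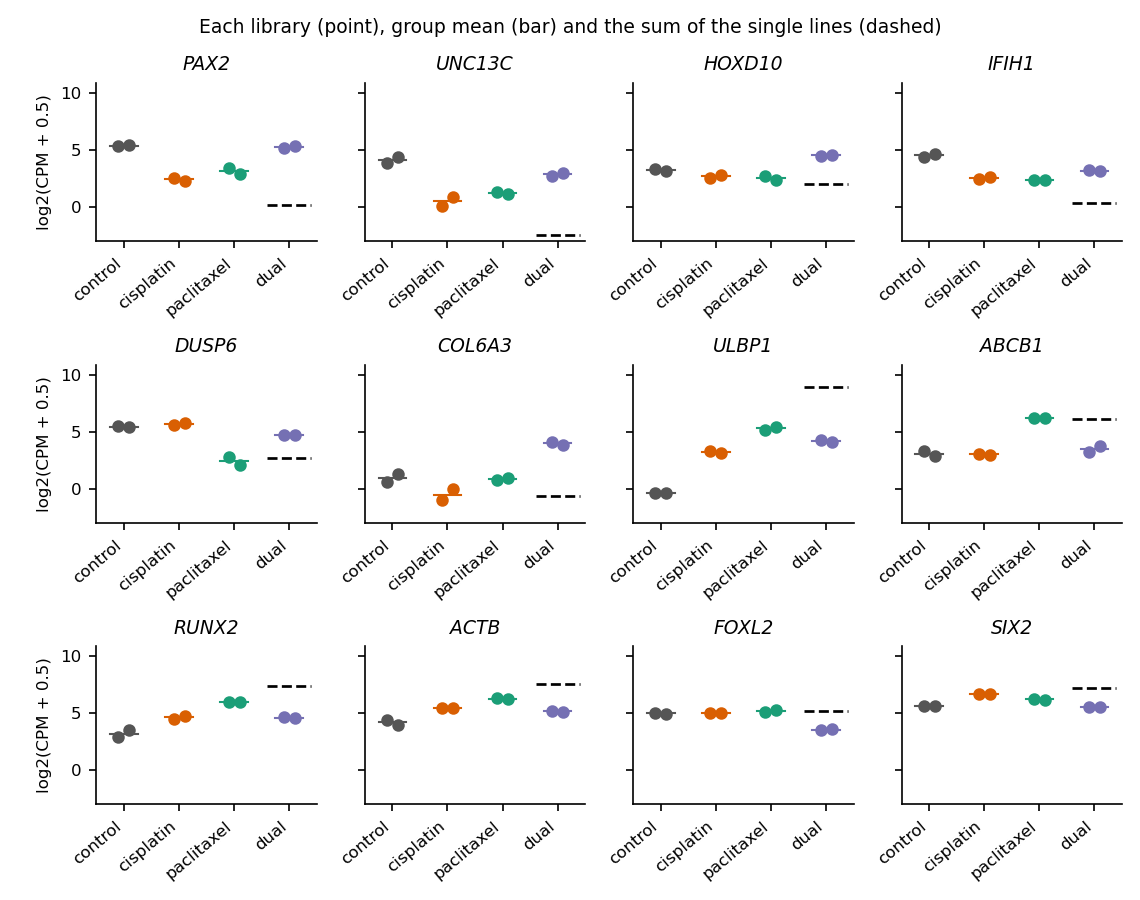
Level at the gene peak of 12 genes (y axis, log2(CPM + 0.5)) in each of the 8 libraries (points), grouped by line on the x axis, with the mean of each line as a bar and the sum of the single lines as a dashed line beside the dual points. PAX2 and UNC13C lie near or towards the control in the dual line, HOXD10 and COL6A3 above all other libraries, and ULBP1, ABCB1, RUNX2 and FOXL2 below the sum.

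On the negative side, the clearest group was access gained in a single line and absent from the dual line. ABCB1 encodes P-glycoprotein, the efflux pump that exports paclitaxel, and its peak at chr7:87600242-87601242 spans its start. It measured 9.10 and 6.82 CPM in the control, 7.77 and 7.48 CPM in the cisplatin-resistant, 71.1 and 72.1 CPM in the paclitaxel-resistant and 9.03 and 12.6 CPM in the dual libraries. The dual libraries were thus within 2-fold of the control mean and far below the paclitaxel-resistant libraries, against a sum of 69.4 CPM. The departure was -2.65 (SE 0.25, adjusted p = 7.43e-16), and -1.58 after the median of its 5 Mb window was subtracted. The fixed list of 7q21 genes around ABCB1 includes ABCB1 itself. Of its 14 measured members, on 13 distinct peaks, 11 were called lower and 0 higher, with a median departure of -0.72. RUNDC3B, at 106 and 116 CPM in the paclitaxel-resistant and 25.8 and 28.1 CPM in the dual libraries, had a departure of -1.99, and CROT, a carnitine acyltransferase gene, one of -1.45. After window subtraction 4 of the 14 were called higher and 3 lower, RUNDC3B being at -0.92, CROT at -0.38 and ABCB4 no longer called at -0.86. The subtraction takes the same amount from every gene of the window, so the order of the genes stays as it was.

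The cisplatin-resistant line had gains of the same kind. LY6K, a GPI-anchored surface protein gene read at its span end, was at 29.1 and 28.9 CPM in the cisplatin-resistant libraries and at 1.18 CPM or below in the other 6. TBX18, a T-box transcription factor gene, was at 20.6 and 20.2 CPM there and at 1.80 CPM or below elsewhere. ABL2, a tyrosine kinase gene, had 14.2 and 12.4 CPM there and at most 2.02 CPM elsewhere. PDGFRB, the receptor for platelet-derived growth factor, showed this pattern at levels above the floor in every line: 25.9 and 26.3 CPM in the cisplatin-resistant libraries, 5.59 and 4.76 CPM in the control, 4.61 and 4.16 CPM in the paclitaxel-resistant and 5.07 and 5.48 CPM in the dual libraries, with a departure of -1.99 (SE 0.33, adjusted p = 6.06e-07). JUN, the AP-1 subunit gene, was at 58.1 and 58.5 CPM in the cisplatin-resistant libraries and at 21.3 and 21.8 CPM in the dual libraries, within the control range of 19.95 to 23.3 CPM, and its departure was -1.83. In the paclitaxel-resistant line the matrix proteoglycan genes LUM (26.2 and 25.4 CPM) and DCN (14.6 and 15.1 CPM), neighbours on chromosome 12 read at their span ends, were open. Their dual libraries were at 1.18 to 1.98 CPM and the departures were -3.78 and -3.27. At each of these genes the dual libraries were nearer to the control than to the line with the gain.

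Where both single lines were more open than the control, the dual line did not reach the sum. ULBP1, a ligand of the NKG2D receptor of natural killer cells, was at 0.260 and 0.257 CPM in the control, under the floor, and at 18.3 and 16.2 CPM in the dual libraries, between the cisplatin-resistant (9.57 and 8.30 CPM) and paclitaxel-resistant (35.6 and 43.2 CPM) libraries. RUNX2, a transcription factor gene of the bone lineage at chr6:45327778-45328778, was at 6.89 and 10.7 CPM in the control, 22.4 and 26.7 CPM in the cisplatin-resistant, 61.1 and 61.2 CPM in the paclitaxel-resistant and 25 and 23 CPM in the dual libraries. Its dual level was that of the cisplatin-resistant line, against a sum of 169 CPM, and the departure was -2.79 (SE 0.21, adjusted p = 1.32e-21). ACTB, the cytoplasmic actin gene read at its span end, had the same order, with 20.8 and 15.1 CPM in the control, 44.5 and 42.2 CPM and 78.2 and 75.0 CPM in the single lines and 35.7 and 34.5 CPM in the dual line.

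Across gene peaks reaching a group mean of at least 5 CPM, both single lines were at least 2-fold above the control at 77, of which 70 were called lower than the sum and 0 higher, with a median departure of -1.99. Both were at least 2-fold below the control at 154, of which 149 were called higher and 0 lower, with a median of 2.12. The dual line was within 2-fold of the control at 15 of the 77 and at 96 of the 154. In neither set did any gene have an interval of the departure within -1 to 1. These counts are a description, since the control libraries enter both single-line changes and a low or high control value alone gives a departure of this sign.

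A different pattern was a lower level in the dual line alone. Both dual libraries lay below the other 6 at 7291 tested peaks (4.59%) and 1709 gene peaks (12%), counted with no test, and 880 of those gene peaks were called lower than the sum. The count at gene peaks ran from 1104 under quantile normalization to 3808 with median-ratio factors, and is therefore not read as an excess. FOXL2, a transcription factor gene of the ovary that shares its peak with FOXL2NB, had near-equal levels in 3 lines: 32.8 and 30.5 CPM in the control, 32.3 and 31.7 CPM in the cisplatin-resistant and 33.8 and 37.4 CPM in the paclitaxel-resistant libraries. The dual libraries at 10.8 and 11.4 CPM were below all of them, and the departure was -1.66 (SE 0.19, adjusted p = 1.27e-11). SIX2, a homeobox gene, had a departure of -1.72 and differed in kind: both single lines, at 72.7 to 101 CPM, were above the control at 48.0 to 49.8 CPM while the dual libraries were at 44.9 and 47.1 CPM. LIPK, a lipase gene, was at 1.43 and 1.29 CPM in the control, 6.42 and 6.55 CPM and 16.9 and 19.8 CPM in the single lines and 1.11 and 0.645 CPM in the dual line, with a departure of -5.70. SESN1, a stress response gene that shares its peak with CEP57L1, was at 36.1 and 39.8 CPM in the control, 43.7 to 80.7 CPM in the single lines and 27.6 and 32.2 CPM in the dual line, with a departure of -1.63. At SIX2, LIPK and SESN1 the single lines were thus raised and the dual libraries lay only a little below the control. FOXL2, LIPK and SESN1 kept that place under all 6 scalings, and SIX2 did not.

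DUSP6, a phosphatase gene that reports and limits ERK signalling, was an intermediate case. It measured 44.2 and 41.7 CPM in the control, 49.1 and 52.7 CPM in the cisplatin-resistant, 6.43 and 3.82 CPM in the paclitaxel-resistant and 26.1 and 25.6 CPM in the dual libraries. The loss seen in the paclitaxel-resistant line was partly present in the dual line, and the departure was 2.02 (SE 0.21, adjusted p = 8.61e-14). Of its distal peaks 8 of 11 were called higher and 0 lower, but the order of levels differed from that at the start. Median log2 levels there were 3.17 in the control, 1.39 in the cisplatin-resistant, 0.43 in the paclitaxel-resistant and 1.90 in the dual line. KIF1A, a neuronal kinesin gene, was an example of loss retained: it was at 21.8 and 23.3 CPM in the control, 1.64 to 5.51 CPM in the single lines and 5.19 and 5.37 CPM in the dual line. Its departure of 3.14 arises because the dual level equalled that of the paclitaxel-resistant line instead of falling to the 0.158 CPM of the sum. Among all gene peaks at least 2-fold above the sum, 1326 in number, neither single line was 2-fold off the control at 519, only the cisplatin-resistant line at 398, only the paclitaxel-resistant line at 215 and both at 194. Among the 848 at least 2-fold below the sum, these counts were 244, 361, 149 and 94.

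Fixed gene lists were described by their counts and medians, beside 16.5% higher, 17.1% lower and a median of 0.04 over all gene peaks. The interferon-stimulated list, the targets of antiviral signalling, had 16 of 34 measured members higher and 4 lower, with a median departure of 0.66, and the higher members outnumbered the lower under all 6 alternative scalings and tests compared. In 15 of the 16 both single lines were below the control, and in 8 of the 16 the dual level lay between the control and both single lines. IFIH1, the sensor of double-stranded RNA, was at 20.7 and 25.6 CPM in the control, 4.95 and 5.73 CPM in the cisplatin-resistant, 4.86 and 4.72 CPM in the paclitaxel-resistant and 8.90 and 8.49 CPM in the dual libraries. The dual libraries were low relative to the control but above both single lines, and the departure was 2.81 (SE 0.31, adjusted p = 1.27e-12). IFITM3 and MX1, antiviral effectors, had departures of 2.43 and 2.03 with the same order of levels. BST2, which tethers budding virus particles, was different, with 27.7 and 27.0 CPM in the dual libraries above the control at 16.8 and 18.9 CPM. The lower members included HLA-C, of antigen presentation, and PSMB9 and TAP1, which share a peak, all with the dual libraries below the other 6. These genes lie on chromosome 6, where 478 of 719 gene peaks were called lower. After window subtraction 12 members of the list were higher and 1 lower.

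HOX genes, which specify position along the body axis, had 9 of 34 higher and 5 lower, and the split followed the cluster, a grouping chosen after the values were seen. In the HOXD cluster on chromosome 2, 7 of 8 measured genes were called higher and 0 lower, with departures of 0.94 to 2.56, against 1 higher and 3 lower of 8 in HOXA, 1 higher and 2 lower of 10 in HOXB and 0 of 8 in HOXC. HOXD10 was at 9.88 and 8.5 CPM in the control, 5.40 and 6.78 CPM in the cisplatin-resistant, 6.07 and 4.72 CPM in the paclitaxel-resistant and 22.1 and 23.9 CPM in the dual libraries. The dual libraries were above the other 6, and the departure was 2.56 (SE 0.30, adjusted p = 2.06e-11). HOXD8 was also above the other 6, at 11.9 and 11.5 CPM, whereas HOXD9 at 5.69 and 8.81 CPM overlapped the control at 5.79 and 6.50 CPM. HOXD genes called higher numbered 7 with median-ratio factors, 6 after cyclic loess and 4 after window subtraction.

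Other lists with more higher than lower members were the neuronal and synaptic genes (7 higher and 2 lower of 23), stem cell associated genes (7 and 2 of 19) and WNT pathway genes (7 and 2 of 26). The neuronal list kept that order under all 6 alternatives, the stem cell and WNT lists under 3. CNTN1, a neuronal adhesion gene, had a departure of 3.37 and the dual libraries above the other 6. All 7 stem cell genes called higher, among them PROM1 at 2.48, KIT at 1.73 and LGR5 at 1.31, had both single lines below the control. LGR5 was no longer called without the first cisplatin-resistant library, where its departure was 0.81, nor after loess or window subtraction, without the variance trend, or in edgeR or DESeq2. KIT was not called after window subtraction. WNT5B, at 1.73, was at 1.13 and not called without the second cisplatin-resistant library, nor without the trend or in DESeq2.

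Lists that leaned lower were developmental transcription factors (10 higher and 17 lower of 45), nucleotide excision and crosslink repair (1 and 6 of 25), cell cycle and spindle checkpoint (2 and 7 of 24) and mismatch repair (0 and 4 of 10), each under all 6 alternatives. The repair genes called lower included BRCA1, which shares its peak with NBR1, at -0.71. For BRCA1 the cisplatin-resistant libraries were high, both at 101 CPM, and the dual libraries at 60.6 and 51.2 CPM overlapped the paclitaxel-resistant ones at 59.9 and 72.3 CPM. The housekeeping genes also leaned lower, with 1 higher and 4 lower of 12. Over all gene peaks lower calls outnumbered higher ones under each of these 6 alternatives except quantile normalization, 5081 against 1046 with median-ratio factors. These lists were therefore not alone in that direction, and keeping it is not in itself particular to them. Tubulins and microtubule proteins, the target of paclitaxel, had 2 higher and 5 lower of 20. TUBB, the main beta-tubulin gene, was at 45.6 and 40.9 CPM in the control, 45.7 and 46.4 CPM in the cisplatin-resistant, 71.3 and 72.8 CPM in the paclitaxel-resistant and 32.1 and 37.5 CPM in the dual libraries, with a departure of -1.13. TUBB3, the beta-tubulin isotype linked to taxane resistance, had a departure of -0.84, with the cisplatin-resistant libraries at 23.3 and 26.8 CPM above the rest, and was not called without the variance trend.

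Lists of both directions included receptor tyrosine kinases and ERK feedback genes (12 higher and 11 lower of 41), mesenchymal and EMT regulators (6 and 6 of 30), epithelial adhesion genes (6 and 4 of 18), matrix and collagen genes (10 and 7 of 37), nuclear receptors (5 and 8 of 34), chromatin regulators (6 and 5 of 37) and ABC transporters (4 and 4 of 14). Among these VIM, the mesenchymal intermediate filament gene, was lower at -1.38, with 60.7 and 68.1 CPM and 52.0 and 53.4 CPM in the single lines and 36.1 and 43.8 CPM in the dual line against 32.4 CPM in both control libraries. KMT2A, a histone methyltransferase gene, was higher at 1.22. MYC was lower at -1.63, its dual libraries of 48.7 and 42.7 CPM reaching into the control range of 37.8 to 44.6 CPM. The p53 pathway had 1 higher and 2 lower of 17, the BCL2 family and death receptors 1 and 3 of 23, AP-1 and immediate early genes 3 and 5 of 23, NF-kB genes 1 and 3 of 15, glutathione and NRF2 targets 2 and 5 of 22 and platinum uptake and export genes 2 and 0 of 11. TGF-beta and BMP genes had 5 and 3 of 29, SOX genes 3 and 1 of 15, P450 and aldehyde enzymes 3 and 2 of 20, ovarian lineage genes 3 and 1 of 17, and fibroblast markers 0 and 4 of 7, the latter being LUM, DCN, PDGFRB and COL3A1. The BCL2, AP-1, NF-kB, glutathione and fibroblast lists leaned lower under all 6 alternatives. The gene peaks as a whole also did so, except under quantile normalization, so keeping that order is not in itself particular to these lists. The BCL2 list had a median departure of 0.08, above the 0.04 over all gene peaks. With median-ratio factors the counts became 1 higher and 4 lower for platinum genes, 4 and 9 for TGF-beta and BMP, 2 and 4 for SOX, 3 and 5 for P450, 3 and 3 for ovarian lineage, 1 and 15 for chromatin regulators, 7 and 15 for receptor tyrosine kinases, 5 and 11 for matrix and 4 and 10 for mesenchymal genes.

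**Figure D3:**
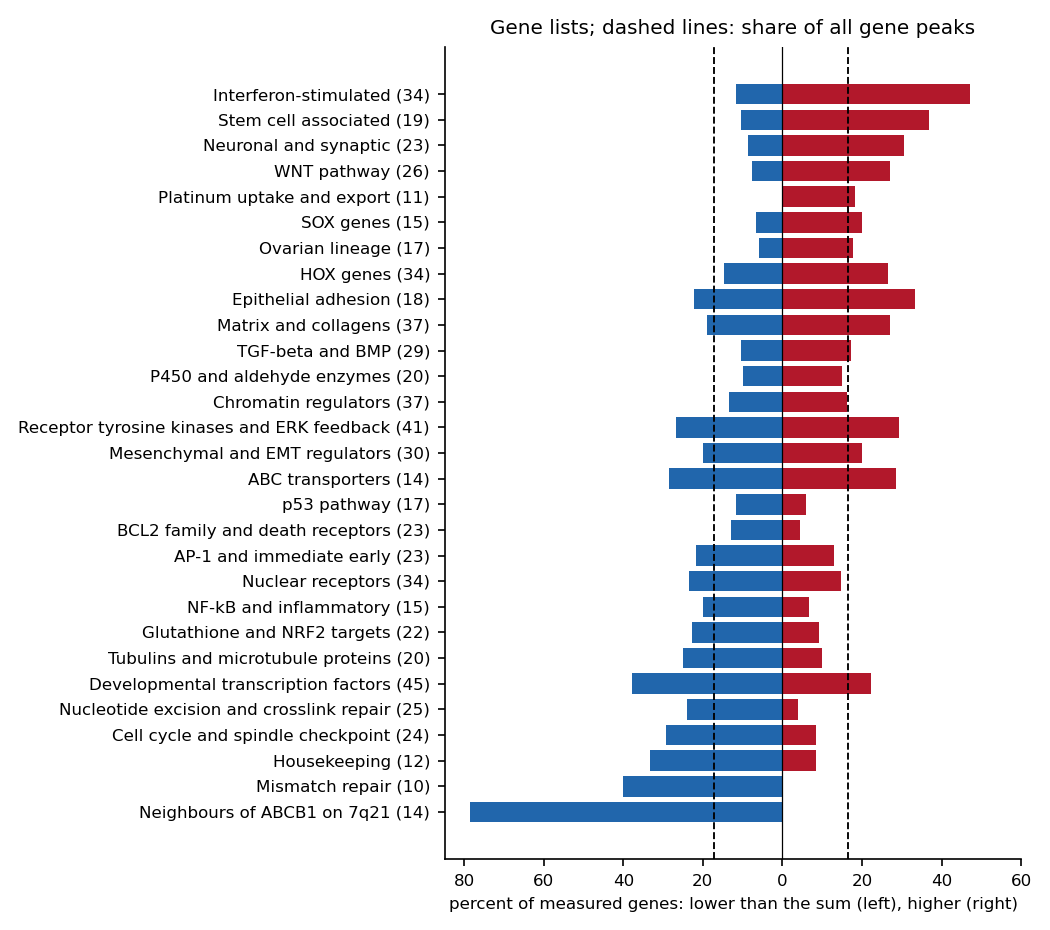
Share of the measured genes of each fixed list (y axis, lists with at least 10 measured genes, their number in parentheses) called lower than the sum (bars to the left, percent) or higher (bars to the right, percent), with dashed lines at the shares over all gene peaks, 17.1% and 16.5%. The interferon-stimulated list has 16 of 34 genes to the right. The list of ABCB1 neighbours, which includes ABCB1 itself, has 11 of 14 to the left.

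Departures were not spread evenly over the genome. Chromosome 6 had 6.74% of its tested peaks called higher and 36.9% lower, with a median departure of -0.66, and chromosome 7 had 7.94% and 19.4%. Chromosome X had 33.9% higher and 7.4% lower, with a median of 0.69, and chromosome 18 had 32.6% and 12.3%. At the 719 gene peaks of chromosome 6, 28 were called higher and 478 lower, and the median log2 level there was 4.13 and 4.2 in the control, 4.18 and 4.19 in the cisplatin-resistant, 4.84 and 4.88 in the paclitaxel-resistant and 4.10 and 4.11 in the dual libraries. The median gene of chromosome 6 was thus raised by 0.63 over the control in the paclitaxel-resistant line and was at -0.11 in the dual line. On chromosome 7 the corresponding differences were 0.49 and -0.12, and 263 of 692 gene peaks were called lower and 65 higher. After the median of each 5 Mb window was subtracted, 164 gene peaks of chromosome 6 were called higher and 129 lower. Of 488 gene peaks on chromosome X, 100 were called higher and 27 lower, and after that subtraction 25 and 187. For the 199 on chromosome 18 the counts were 58 and 19, and then 20 and 67. Over all gene peaks the subtraction gave 1491 higher and 3155 lower. All 12 genes on chromosome 6 named by the fixed rule were lower, among them RUNX2, ULBP1, TBX18, TUBB, SESN1, the cell cycle inhibitor gene CDKN1A and the transcription factor gene SOX4. CDKN1A was at 38.9 and 39.3 CPM in the paclitaxel-resistant and 18.9 to 22.8 CPM in the other libraries, and its departure of -1.02 became -0.27 and was not called once chromosome medians were subtracted. For TUBB and SOX4 window subtraction ended the call, and for RUNX2 it did not.

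**Figure D4:**
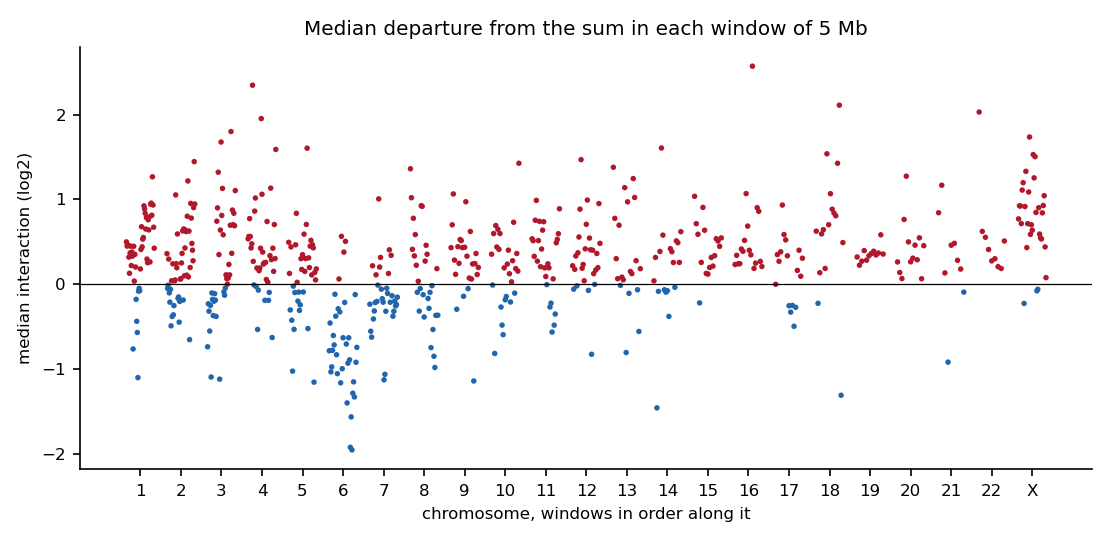
Median departure from the sum (y axis, log2 scale) in each of 595 windows of 5 Mb holding at least 20 tested peaks, in order along the chromosomes (x axis). Of the windows on chromosome 6, 31 of 35 lie below 0, and of those on chromosome X, 28 of 31 lie above 0.

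Of 595 windows, 46 had a median departure of at least 1 and 20 of -1 or less, 10 of the latter on chromosome 6. The lowest was 140 to 145 Mb on chromosome 6, with 70 of 102 peaks called lower, 0 higher and a median of -1.95. Median log2 levels there were 0.36 and 0.35 in the control, 1.98 and 1.87 in the cisplatin-resistant, 1.87 and 1.89 in the paclitaxel-resistant and 0.57 and 0.60 in the dual libraries. The median change of a peak from the control was smaller, at 0.64 in the cisplatin-resistant, 0.67 in the paclitaxel-resistant and 0.02 in the dual line. The window at 130 to 135 Mb, which holds the growth factor gene CCN2, was raised mainly in the cisplatin-resistant line, and that at 135 to 140 Mb, which holds MYB and TNFAIP3, mainly in the paclitaxel-resistant line, at medians of -1.92 and -1.56. On chromosome 14, the window at 25 to 30 Mb with NOVA1 had 92 of 183 peaks lower and a median of -1.46. In each of these 4 windows at least 1 single line was raised over the control and the dual libraries lay below the higher single line.

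The highest windows were of another kind. At 60 to 65 Mb on chromosome 16, where no protein-coding gene had a gene peak, 55 of 77 peaks were called higher. The median log2 level there was 2.45 and 2.53 in the dual libraries and -0.07 to 0.26 in the other 6. At 65 to 70 Mb on chromosome 18, where CDH7 lies, 87 of 146 were called higher and 90 had the dual libraries above the other 6. The next window, at 70 to 75 Mb, had 57 of 106 called lower, 8 higher and a median of -1.31. It holds the start of SOCS6, a feedback inhibitor gene of cytokine signalling, which was called lower at -4.52, with 13.1 to 22.2 CPM in the single lines, 2.86 and 5.66 CPM in the control and 3.34 and 1.40 CPM in the dual line. The median departures of these neighbouring windows were thus of opposite sign. The window at 30 to 35 Mb on chromosome 4, with the protocadherin gene PCDH7, had 44 of 59 higher, and that at 10 to 15 Mb on chromosome 22 had 79 of 94 higher with a median of 2.03. In the last of these the dual libraries, at 2.13 and 2.16, were above the control at 1.53 and 1.66 and the single lines were at 0.52 to 1.01.

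**Figure D5:**
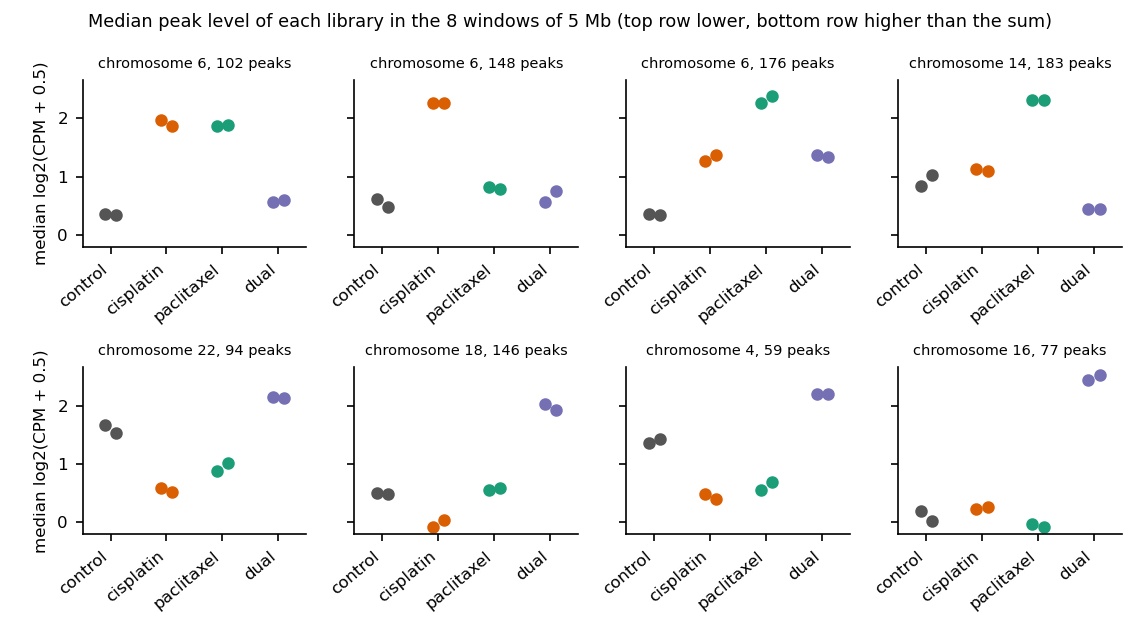
Median log2(CPM + 0.5) (y axis) of the tested peaks in each of the 4 lowest and 4 highest windows, for each of the 8 libraries grouped by line (x axis). The top row holds the lowest windows, where at least 1 single line is raised, and in the window on chromosome 16 the dual libraries, at 2.45 and 2.53, stand above all others.

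Location relative to genes and strength of the peak also mattered. Outside genes 22.6% of peaks were called higher and 15.9% lower, inside genes 17.4% and 14.6%, and within 1 kb of a gene start or end 16.3% and 13.5%. Peaks of 5 to 10 CPM in the mean were called higher most often, at 31.2%, against 12.1% under 2 CPM, where the median standard error was 0.65, and 14.9% over 20 CPM. Start regions with over 15 CpG dinucleotides, a limit chosen after seeing the data, were called higher at 13.2% and lower at 18.7% of 8035 gene peaks. Those with 15 or fewer were called higher at 22.2% and lower at 16.6% of 1816, at median levels of 27.4 and 7.4 CPM for the richer and poorer regions, and the part of peak strength in this was not tested. Start regions whose dual libraries were above the other 6 held GGGCGG in 46.8% and had a median of 16 CpG. Those below the other 6 held it in 80% and had a median of 27, against 71.5% and 26 over all 9851 start regions at gene peaks. CCAAT was present in 29.5% of those called higher and 44.9% of those called lower, and TGANTCA in 4.17% and 6.2%, against 37.3% and 4.4% over all start regions at gene peaks. By placement TGANTCA had the other order, being in 6.95% of those above the other 6 libraries and 3.09% of those below. Also counted were CACGTG (the E box), its variant CATGTG bound by MITF, TATAAA (the TATA box), GGAATG of TEAD factors, CCGGAAG of ETS factors, ACAAAG of SOX factors and TGTGGT of RUNX factors. Of these the ETS element was found in 14.7% of those called higher and 19.8% of those called lower, and the SOX element in 13.7% and 10.8%.

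Away from gene starts, the genes with the largest numbers of called distal peaks were picked out. That count favours genes with many distal peaks and is not a share. Nearest to DLG1, a synaptic scaffold gene, 113 of 121 distal peaks were called higher and 1 lower, with median log2 levels of 2.06 in the control, 0.91 and 0.43 in the single lines and 2.22 in the dual line. The gene peak of DLG1 itself was not called, at 0.27, but it was called higher after quantile normalization and loess and lower after window subtraction, at -1.10 (adjusted p = 1.6e-07). At SIPA1L2, 98 of 118 were called higher, and the dual libraries were above the other 6 at 110. Its median level was 0.48 in the control, 0.23 and 0.06 in the single lines and 2.25 in the dual line, a gain of the dual line alone. DNM3, a dynamin gene, had 85 of 150 higher and 8 lower. In the other direction AOPEP, an aminopeptidase gene, had 80 of 104 distal peaks lower and 0 higher, with a median of 0.54 in the control, 2.04 and 2.10 in the single lines and 1.46 in the dual line, while its gene peak was not called at 0.11. CUBN, which encodes the uptake receptor cubilin, had 53 of 72 lower, and DMD, the dystrophin gene, 62 of 210 lower and 30 higher, so that the run at DMD was mixed. After window subtraction 69 peaks near DLG1 and 38 near SIPA1L2 were called higher and 61 near AOPEP lower.

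Among single peaks of any location, the largest departure above the sum was at chr12:41967646-41968646, outside genes and 113699 bp from GXYLT1, with 46.4 and 47.2 CPM in the dual libraries and at most 3.6 CPM elsewhere (departure 6.49, SE 0.45, adjusted p = 5.74e-24). A pair lay inside TSHZ2 at chr20:53487335-53488335 and chr20:53489046-53490046, with 28.9 and 27.7 CPM and 25.1 and 26.3 CPM in the dual libraries and at most 2.32 CPM elsewhere, in the same gene whose start was open in the dual line. At chr4:89140215-89141215, 25814 bp from TIGD2, the dual libraries at 36.5 and 31.7 CPM were above a control of 22.6 and 21.6 CPM, while the single lines were at 1.58 to 4.98 CPM. The largest departure below the sum was at chr6:140043145-140044145, 668997 bp from CITED2, which was at 0 CPM in both control libraries, for which a count of 0 allows up to 0.390 and 0.386 CPM. It was at 6.64 and 7.72 CPM in the cisplatin-resistant, 23.1 and 26.6 CPM in the paclitaxel-resistant and 1.11 and 1.40 CPM in the dual libraries. Inside CNTNAP2, a neurexin family gene on chromosome 7, the peak at chr7:146961049-146962049 was at 11.4 to 20.6 CPM in the single lines and under 1 CPM in all 4 control and dual libraries. At chr12:65656377-65657377, 167583 bp from HMGA2, the single lines were at 13.1 to 26.5 CPM and the dual libraries at 0.495 and 0.430 CPM, below the control at 1.04 and 2.96 CPM. At these 3 peaks the dual libraries lay below both single lines.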

How the data were processed

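Tagmentation with Tn5, barcoding and PCR amplification are described in the labels' protocols. Bowtie2, Picard, MACS2 and the hg38 build are named in the submitters' processing notes, with versions, settings and order not given in the sources used here. The authors deposited CPM values for consensus peaks, whose total over peaks is 1000000 in each library, per the file headers and values. Peaks carry the name of a line in the deposited table, and replicates were not pooled. All 100% of values came out as whole reads within 0.01 read, at depths of 7693492 to 9304798 reads in peaks. Intervals of the departure come from the spread between libraries, and the 3-read floors cover counting error only, since PCR reads are not independent molecules. All columns were matched to a sample and 0 were left over.

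The departure dual - cisplatin - paclitaxel + control was fitted with limma 3.58.1 in R 4.3.3 on log2(CPM + 0.5) over all 8 libraries, with a variance trend and Benjamini-Hochberg adjustment over 158698 peaks. With 4 residual degrees of freedom, moderation borrowed 98.52 prior degrees from all peaks, so that the error of a peak is largely a value shared by peaks of its strength. On the recovered reads edgeR 4.0.16 called 17577 peaks higher and 26924 lower, and DESeq2 1.42.0 was run beside it. The code was tested on simulated data.

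Gene names, spans and starts came from RefSeq tables of GRCh38.p14, used with the deposited hg38 coordinates. Of 19974 protein-coding genes, 15812 had a listed start, and the other 4162 were read at a span end, which can be their far end. Genes named were those with the largest departures per direction, those with the dual line above or below the other 6 libraries, up to 3 called members of each list, genes with the most called distal peaks, the most extreme peaks and windows, and a fixed set of drug-resistance genes. A rule for genes changed 2-fold in both single lines with a narrow interval around 0 found 0. ABCC2, in the fixed set, had no gene peak, and a few genes that the rule names are not reported here. The members, lists and tests were chosen with earlier results of these data known. Near-identical genes can share reads, which bears on HLA genes and tubulins. Alternatives covered pseudocount, filter, scaling, regional medians, variance model, count tests, the linear scale, a replicate block and each library left out. The placement of the dual line under other scalings was added after seeing the data. Same-numbered libraries of different groups did not deviate together, with correlations of -0.0006 to 0.0033, so the numbers were not taken as pairs.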

Additional observations from a re-analysis of the deposited data

Results flagged for a closer look

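The peaks of the deposited consensus set carry the name of a line, a label that none of the comparisons used, and the departure differed sharply by that name. Of tested peaks named for the dual line, 39.6% were called higher than the sum and 0.318% lower. Of those named for the control, 34.9% were called higher and 0.557% lower. Peaks named for the cisplatin-resistant line were called higher at 2.84% and lower at 32.8%, and those named for the paclitaxel-resistant line at 6.81% and 15.7%. Peaks named for a resistant line had median levels above the control in that line, by 0.37 for the dual, 0.89 for the cisplatin-resistant and 0.28 for the paclitaxel-resistant line. The names thus follow the levels that enter the departure, and the split by name is no independent result. How the names were given is not stated in the sources used here, and the part of the consensus procedure in the counts over all peaks was not tested.

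The interaction itself is a test of whether the cisplatin-resistant minus control difference equals the dual minus paclitaxel-resistant difference. It compares 4 groups of 2 libraries each and speaks for these lines only. Differences between lines that are unrelated to resistance cannot be told apart from it. By that test the 2 differences were unequal at 30672 peaks upwards and 23753 downwards, and at 2349 and 2428 gene peaks.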

How the results depend on the processing

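Counts that moved by over 1.5 times were the following. Calls higher over all peaks (30672) became 19759 after cyclic loess, 18599 with median-ratio factors, 19110 after 5 Mb window subtraction, 17577 in edgeR and 11316 in DESeq2. Calls lower over all peaks (23753) became 8740 under a filter of CPM at least 2 in 4 libraries, which tested 103450 peaks. Gene peaks higher (2349) became 1046 with median-ratio factors, 1491 and 1351 after window and chromosome subtraction, 1003 without the variance trend, 1043 in edgeR and 681 in DESeq2. Gene peaks lower (2428) became 5081, 742 without the trend, 4699 in edgeR and 4031 in DESeq2, the first of these being with median-ratio factors. Leaving out 1 library gave 23780 to 25634 higher and 18893 to 20588 lower over all peaks, and 1729 to 2048 and 1990 to 2249 over gene peaks. With a replicate block the counts were 30886 and 23853, and 2369 and 2420 at gene peaks, and the block changed no call of a named gene.

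Of 111 named genes 104 were called, 96 without each library in turn, 90 under every alternative other than regional subtraction and 78 under all. Reversed values of called genes were BMPR1B at -0.25 and DNM3 at -0.54 after window subtraction. Among genes not called, DLG1 was called at -1.10 after window subtraction and was at -0.093 with median-ratio factors and in DESeq2 and -0.064 in edgeR. GSTP1 was at -0.027 after loess, -0.27 with median-ratio factors, -0.16 after chromosome subtraction, -0.25 in edgeR, -0.28 in DESeq2 and -0.011 to 0.174 without single libraries, -0.0058 without the second cisplatin-resistant library and -0.011 without the second dual library. AOPEP was at -0.25 with median-ratio factors and in DESeq2, -0.11 after chromosome subtraction, -0.22 in edgeR and, without single libraries, from -0.013 (first dual) to 0.237 (second dual). SLC31A1 was at 0.066 after quantile normalization and 0.037 after loess, and ALDH1A1 at 0.041 after loess. The cause was not tested. Without single libraries, GSTM3 was at -1.20 (second paclitaxel-resistant), SOX30 at 1.17 (second control), CD3E at 1.19 (second cisplatin-resistant) and DNM3 at 0.34 (first dual). Window subtraction also ended the calls of BRD2, HS3ST5, KIF5C, KIT, LGR5, PMAIP1, RARB and SIPA1L2, and chromosome subtraction that of BRD2. ABCG2 lost its call under every scaling, in both count tests and without most single libraries. Departures at peaks under 2 CPM are limited by depth.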
